A study of Mus musculus with 9 samples.

Results

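The p200 family, also called the interferon-inducible p200 or PYHIN family, is a cluster of mouse genes whose proteins join a pyrin domain, a HIN domain or both. The members described here were listed by name as Ifi203, Ifi204, Ifi205, Ifi207, Ifi208, Ifi209, Ifi211, Ifi213, Mnda and Aim2, and were found by symbol in the count table. The 10 names gave 9 genes of the 54752 gene identifiers in the table. Mnda has no symbol of its own in the GENCODE M21 annotation, and RefSeq gives it as a synonym of Ifi211, so its values are those of Ifi211. The members were chosen by family membership with their levels in knockout and control libraries in view, so every contrast with the control is given below as a description, without a test.

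HIN domains bind double-stranded DNA, and pyrin domains pair with pyrin domains of partner proteins. Aim2 uses both to sense DNA in the cytosol: it recruits the adaptor Pycard (ASC), which gathers caspase-1 into an inflammasome. Other family members act in the nucleus and cytosol, where p204, the product of Ifi204, has been linked to DNA sensing through STING, as has its human relative IFI16. Many of the genes are transcribed in response to type I interferon through the factor complex ISGF3, which includes Irf9 and binds the interferon-stimulated response element (ISRE), and the family is best known from macrophages and lymphocytes.

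RNA was sequenced from B16F10, a mouse melanoma cell line, in 9 libraries. Guide 1 (Tada2bsg1, 3 libraries) and guide 2 (Tada2bsg2, 3 libraries) are cells whose genotype is given as Tada2b knockout, and GFPsg (3 libraries) are cells with a guide named for GFP whose genotype is given as WT. Tada2b encodes an adaptor of the SAGA histone acetyltransferase complex. All cells grew in DMEM with FBS, no interferon or other agent is named for any group, and the labels do not say whether the cells were clones or pools, or whether replicates were separate cultures, so p-values measure only the spread between these libraries.

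Library totals lay between 70.6 and 76.9 M counts (M, mega). Tada2b itself had 2548, 2479 and 2552 reads with guide 1, 2201, 2016 and 1856 with guide 2, and 2070, 1679 and 1902 with GFPsg, so neither guide had less Tada2b RNA than GFPsg as a group. A count over the whole gene does not show a small edit within it. The 7 melanocytic markers were all detected. Their summed level was 4973 to 5210 CPM with guide 1, 7032 to 7274 CPM with guide 2 and 20322 to 21118 CPM with GFPsg. All 7 fell in the libraries labelled knockout, beside 26.3% of all genes tested. With guide 2 against guide 1 all 7 were higher, by a median of 0.50 on the log2 scale, beside 2.66% of all genes tested. That order of the groups is the reverse of the one seen for the p200 genes below, and what it contributes to their levels was not tested.

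All 9 member genes lie on chromosome 1 (mm10), between 173350879 and 174031810, a stretch that also holds the family genes Ifi202b, Ifi206, Ifi214, Mndal and the pseudogene Ifi203-ps. Aim2 is at one end (chr1:173350879-173466040, plus strand) and Ifi205 at the other (chr1:174011998-174031810, minus strand). Between them come Ifi213 (chr1:173566283-173599274, minus), Ifi209 (chr1:173630917-173647928, plus), Ifi208 (chr1:173673675-173698395, plus), Ifi207 (chr1:173723427-173741747, minus), Ifi204 (chr1:173747293-173766943, minus), Ifi211 (chr1:173896345-173913046, minus) and Ifi203 (chr1:173920407-173942672, minus). Exons of Ifi203 and Mndal overlap by 37 bases on the same strand, and no other member shares exon bases with another gene.

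RefSeq promoter windows of GRCm38.p6, from 250 bases before to 50 after the annotated start, were available for 8 of the 9 members, Ifi204 being the exception. The ISRE was searched as GAAA, any 2 bases and GAAA again, on either strand. A match was found in 6 of these 8 members, Ifi203, Ifi205, Ifi207, Ifi208, Ifi211 and Ifi213, and in 3 of 4 other family genes with a window, Ifi206, Ifi214 and Mndal. Over all 27025 genes with a window the share was 4.0%. The match along the transcript in each of these genes is shown with 15 bases on each side, so that the genes can be compared around it. Capitals mark the ISRE match, and sequences run 5′ to 3′ along the transcript.
Ifi211 (chr1:173913059-173913098, minus): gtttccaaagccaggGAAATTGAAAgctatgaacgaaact
Ifi205 (chr1:174031865-174031904, minus): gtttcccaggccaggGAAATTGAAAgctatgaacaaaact
Ifi207 (chr1:173741826-173741865, minus): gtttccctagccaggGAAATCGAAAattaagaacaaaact
Ifi203 (chr1:173942503-173942542, minus): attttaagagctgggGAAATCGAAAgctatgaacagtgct
Mndal (chr1:173880199-173880238, minus): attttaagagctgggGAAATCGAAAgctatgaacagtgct
Ifi208 (chr1:173673592-173673631, plus): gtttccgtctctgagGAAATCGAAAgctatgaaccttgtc
Ifi213 (chr1:173599321-173599360, minus): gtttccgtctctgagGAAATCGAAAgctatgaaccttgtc
Ifi206 (chr1:173491334-173491373, minus): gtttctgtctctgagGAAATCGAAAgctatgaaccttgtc
Ifi214 (chr1:173536012-173536051, minus): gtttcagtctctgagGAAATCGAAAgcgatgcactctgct

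Likeness varied between the stretches. Those of Ifi203 and Mndal were identical over 40 of 40 bases, as were those of Ifi208 and Ifi213, and Ifi206 matched both of the last at 39 of 40. Ifi205 and Ifi211 shared 37 of 40 bases, and Ifi207 shared 34 of 40 with Ifi205. Ifi214 shared 33 of 40 with Ifi208, Ifi213 and Ifi206, and 24 to 29 with the rest. Most matches began close to the annotated start, at 35 bases before it in the second of the windows given for Ifi203, 37 before it in Ifi211, 41 in Ifi207, 58 in Ifi208 and 73 in Ifi213. Ifi205 held its match at 134 bases before the start and another, in the opposite direction, 24 bases after it. Mndal also held a match in the opposite direction, 54 bases before the start of its second window's transcript. Matches in the opposite direction are not among the stretches shown.

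The form GAAATCGAAA is rare. It occurred in the windows of 16 of 27025 genes, of which 7 were p200 genes: the members Ifi203, Ifi207, Ifi208 and Ifi213 and the relatives Ifi206, Ifi214 and Mndal. These letters were chosen after the matches had been seen. No window of Ifi209 or Aim2 held an ISRE match. A gamma-activated site, searched as the palindrome TTCNNNGAA, occurred in no member's window, against 9.6% of genes, and an NF-kB motif occurred in those of Ifi203, Ifi207, Ifi209 and Aim2, 4 of 8 members, against 29.4% of genes. These are letter matches and not measured binding sites. Every counted member with a window (Ifi203, Ifi205, Ifi207 and Ifi211) held an ISRE match. Of the members that, as shown next, were almost unread, Ifi208 and Ifi213 held one and Ifi209 and Aim2 did not. Whether the matches bear on level was not tested.

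**Figure D1:**
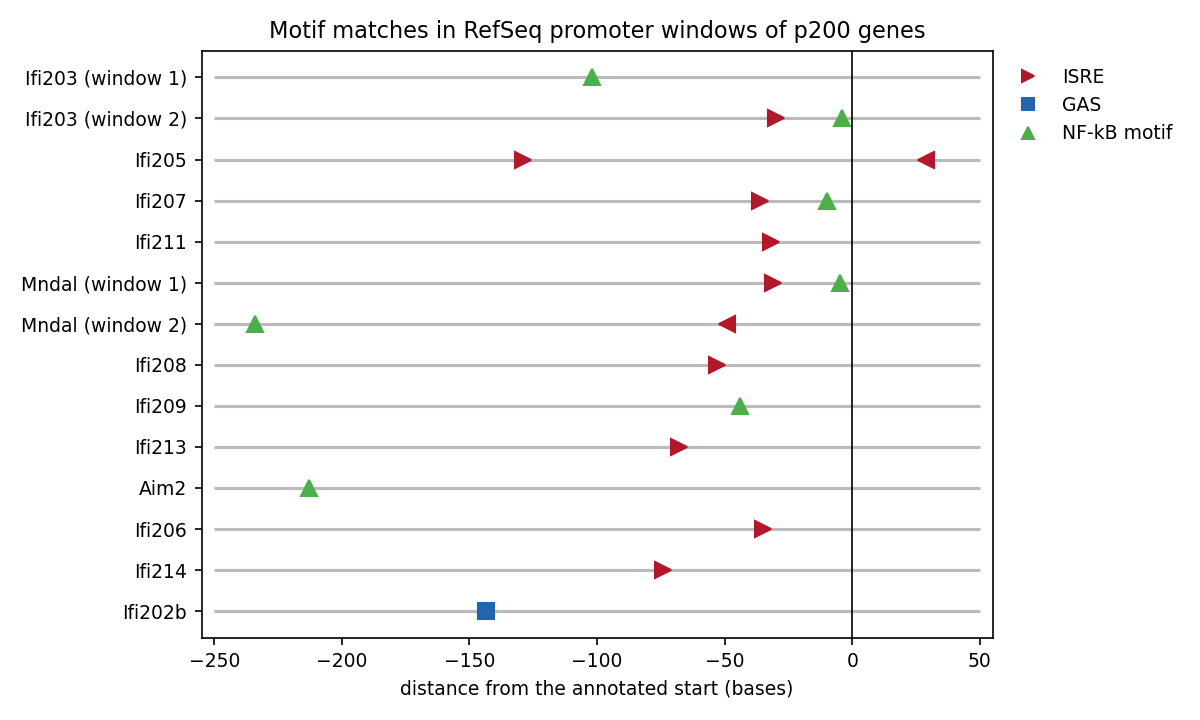
Motif matches in RefSeq promoter windows of p200 genes; the x axis is the distance from the annotated start in bases, each grey line is one window, right-pointing red triangles are ISRE matches along the transcript and left-pointing ones against it, blue squares gamma-activated sites and green triangles NF-kB motifs. ISRE matches lie before the start in 6 of the 8 members with a window, Ifi205 has another after it, and Ifi209 and Aim2 have none.

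Of the 9 members, 5 passed the filter on low counts (Ifi203, Ifi204, Ifi205, Ifi207 and Ifi211) and 4 did not (Ifi208, Ifi209, Ifi213 and Aim2). Each of the 5 was read at a high level with both guides and at a low level with GFPsg, with no overlap between either guide and GFPsg. The share of all genes without such overlap was not counted, so this separation is a description only. Ifi203, at 6 to 17 reads in the GFPsg libraries, and Ifi207, at 0 to 3, passed the filter only through the guide libraries. From summed reads scaled for library size, their levels with guide 1 were 21.7 (Ifi203) to 67.0 (Ifi207) times those with GFPsg, and with guide 2 17.3 (Ifi203) to 40.8 (Ifi204) times. For scale, 51.0% of the 17931 genes tested were called in the contrast of both guides with GFPsg, 24.7% higher and 26.3% lower, and for guide 1 alone and guide 2 alone the shares were 48.4% and 45.1% (edgeR quasi-likelihood test, called at an adjusted p under 0.05, Benjamini-Hochberg over all genes). Since the members were chosen with this contrast in view, a count of calls among them is not given. In RNA from whole cultures, more cells expressing a gene and more of its RNA in each cell cannot be told apart.

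Ifi211, listed also as Mnda, was the most highly read member. It had 2761, 2483 and 2689 reads with guide 1, 1795, 1784 and 1686 with guide 2, and 56, 47 and 35 with GFPsg. The 3 groups did not overlap, and their means were 34.3 ± 0.815, 23.4 ± 0.319 and 0.650 ± 0.142 CPM for guide 1, guide 2 and GFPsg (SD, n = 3 each). The fitted log2 change was 5.72 ± 0.09 (SE) for guide 1 over GFPsg and 5.16 ± 0.09 for guide 2 over GFPsg, which share the GFPsg libraries.

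Ifi204, whose protein p204 binds DNA and has been tied to STING signalling, came next. Its reads were 2420, 2105 and 2375 with guide 1, 1547, 1307 and 1392 with guide 2, and 30, 33 and 35 with GFPsg. Again the groups were separate, at 29.8 ± 1.31, 18.9 ± 1.80 and 0.463 ± 0.0502 CPM for guide 1, guide 2 and GFPsg. The log2 change over GFPsg was 6.01 ± 0.11 with guide 1 and 5.35 ± 0.11 with guide 2.

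Ifi205, whose protein p205 has been reported to act on Pycard expression in mouse macrophages, had 1402, 1372 and 1320 reads with guide 1, 858, 861 and 840 with guide 2, and 27, 29 and 10 with GFPsg. The third GFPsg library was lower than the other two, and all were far under either guide. Mean levels were 17.7 ± 0.754 CPM with guide 1, 11.4 ± 0.314 CPM with guide 2 and 0.313 ± 0.154 CPM with GFPsg, and the log2 change over GFPsg was 5.82 ± 0.15 with guide 1 and 5.18 ± 0.16 with guide 2.

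Ifi203 had 340, 261 and 321 reads with guide 1, 250, 209 and 257 with guide 2, and 6, 17 and 16 with GFPsg. Here the guides overlapped: the lowest guide 1 library stood at 3.51 CPM and the highest guide 2 library at 3.59 CPM, and both groups were above the highest GFPsg library at 0.255 CPM. The log2 change over GFPsg, 4.42 ± 0.24 with guide 1 and 4.10 ± 0.24 with guide 2, was the smallest among the 5.

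Ifi207 had 141, 148 and 149 reads with guide 1, 99, 90 and 70 with guide 2, and 3, 0 and 3 with GFPsg. All 3 groups were separate, but the control rests on 6 reads in all. With 438 reads against those 6, and scaling for library size, the guide 1 level was 67.0 times that of GFPsg (95% exact interval 30.5 to 183, counting error only), and with 259 reads the guide 2 level was 40.7 times (18.4 to 112). The fitted log2 change, 5.99 ± 0.36 with guide 1 and 5.26 ± 0.38 with guide 2, depends on these few reads: without GFPsg replicate 2, which had none, it was 5.48 with guide 1 and 4.76 with guide 2.

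The other 4 members were at or near the detection limit everywhere. Ifi208, whose older name Pydc3 refers to its pyrin domain, had 1 read in 1 guide 2 library and none in any other. Ifi209 (Pyhin1) had 1 read in guide 1 replicate 2 and 1 in guide 2 replicate 1. Ifi213 (Pydc4) had 1 read in guide 1 replicate 2 and 1 in each guide 2 library, and none with GFPsg.

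Aim2, the inflammasome sensor, had 4 reads in guide 1 replicate 1, none in the other guide 1 libraries or with guide 2, and 1 read in GFPsg replicate 1. A count of 0 in these libraries allows up to 3 reads, or 0.0380 to 0.0450 CPM, so no difference between the groups was detectable for these 4 genes at this depth.

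**Figure D2:**
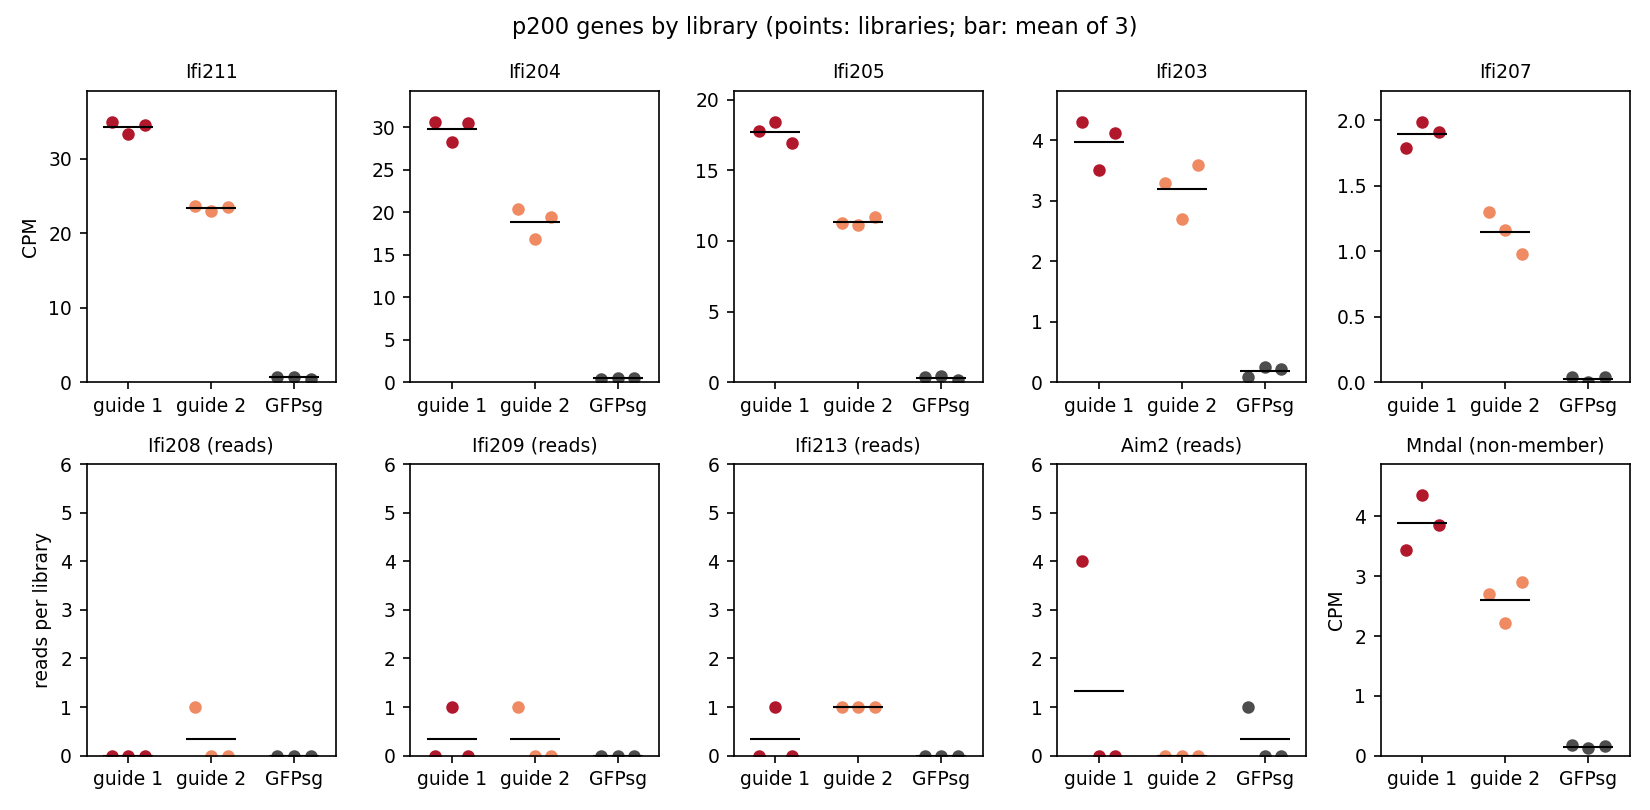
Level of each member in each library, with guide 1, guide 2 and GFPsg from left to right; the top row and Mndal give CPM on the y axis, the 4 members that did not pass the filter give reads, points are libraries and bars the mean of 3. In the top row every guide library is above every GFPsg library, whereas Ifi208, Ifi209, Ifi213 and Aim2 stay at 0 to 4 reads.

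Mndal is a family gene that was not on the list, and its annotated span (chr1:173849126-173942491, minus) takes in Ifi211 and overlaps Ifi203. It had 271, 324 and 301 reads with guide 1, 206, 172 and 208 with guide 2, and 13, 8 and 11 with GFPsg, with no overlap between groups. Mndal passed the filter on low counts only through the guide libraries. Its log2 change over GFPsg was 4.67 ± 0.21 with guide 1 and 4.10 ± 0.22 with guide 2, given as a description because, like the members, it belongs to a family chosen for this contrast. The remaining family genes were barely read: 5 reads of Ifi206 with guide 1 and 4 with guide 2, 4 and 6 of Ifi203-ps, 1 and 1 of Ifi214, 1 and 0 of Ifi202b, and none of any of them with GFPsg.

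Levels of different genes were compared per kilobase of exon. With guide 1 the order was Ifi211 at 19.2 ± 0.457, Ifi204 at 8.37 ± 0.368, Ifi205 at 4.24 ± 0.180, Mndal at 1.07 ± 0.127, Ifi203 at 0.593 ± 0.0621 and Ifi207 at 0.554 ± 0.0301 CPM per kilobase. Each neighbour in this order was separated over the 3 libraries except the last pair, where Ifi203 ran from 0.523 to 0.642 and Ifi207 from 0.522 to 0.581. With guide 2 the order was the same and the last pair was separate, Ifi203 at 0.402 to 0.535 and Ifi207 at 0.285 to 0.381. With GFPsg, Ifi211 (0.274 to 0.424) and Ifi204 (0.114 to 0.139) were still the highest, and from Ifi205 downward each range overlapped the next.

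This order carries a limit of sequence. Of all 50-base stretches of Ifi211 transcripts, 72.8% occur in another gene as well, 44.7% in Ifi205, and of its 100-base stretches 56.9% do. The corresponding 50-base shares were 20.0% in Ifi204, 18.6% in Ifi205, 12.4% in Ifi203 and 7.3% in Ifi207. A counter that drops reads aligning to several places would lower Ifi211 most, and the read length is not given in the sources used here. Rescaling by the bases that belong to no other gene's exons, by no length at all, or by the 100-base stretches found in no other gene left the order of the 5 counted members as it was. Among the members that were barely read, 33.7% of the 50-base stretches of Ifi209 and 20.9% of those of Ifi208 were shared, but only 0.7% of those of Aim2.

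**Figure D3:**
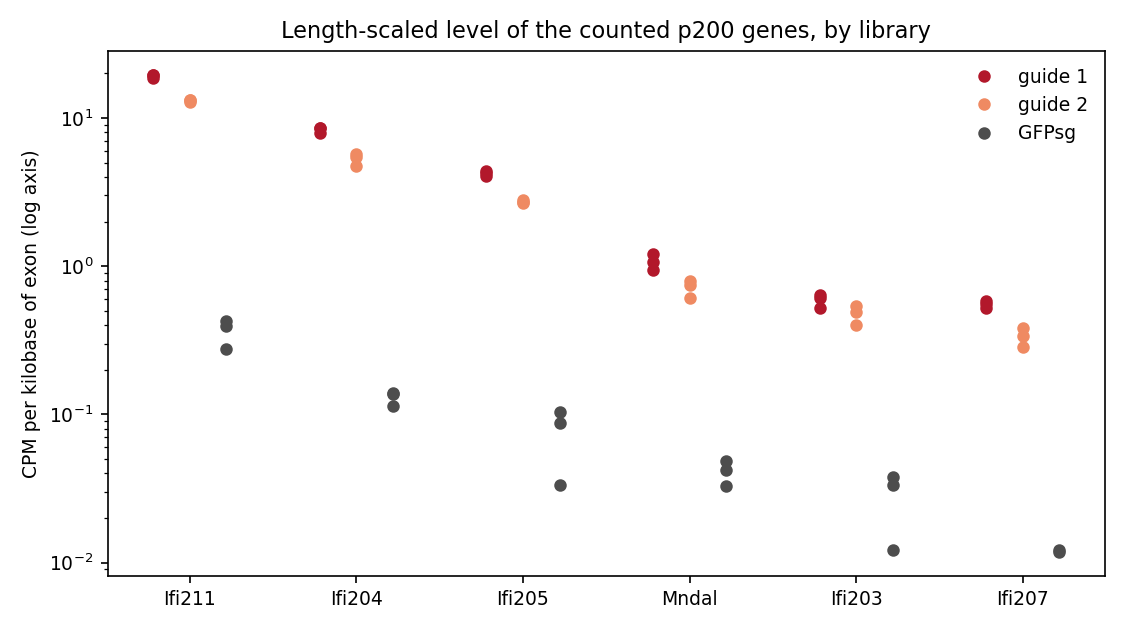
Level per kilobase of exon for the counted p200 genes, on a log axis, with guide 1, guide 2 and GFPsg from left to right within each gene; each point is a library, and GFPsg replicate 2 of Ifi207, at 0, cannot be drawn. Ifi211 is highest with both guides, and Ifi203 and Ifi207 overlap with guide 1.

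The members were tested in the contrast of guide 2 with guide 1, which does not involve GFPsg. They were nevertheless proposed with results from all 9 libraries known, so these tests are not independent of that knowledge. All 5 counted members had a lower mean with guide 2, and 3 passed the test. Over all 17931 genes, 3.68% were called in this contrast, 477 higher (2.66%) and 183 lower (1.02%) with guide 2, and the median log2 change was 0.00. The median of the 5 members was -0.64.

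Ifi204 was lower with guide 2 by 0.66 ± 0.07 on the log2 scale (edgeR quasi-likelihood test, adjusted p = 1.24e-05), with 20.3, 16.9 and 19.4 CPM with guide 2 and 30.6, 28.3 and 30.5 CPM with guide 1. Ifi211 was lower by 0.55 ± 0.06 (edgeR, adjusted p = 1.87e-05), with 23.6, 23.0 and 23.5 CPM with guide 2 and 35.0, 33.4 and 34.5 CPM with guide 1. Ifi205 was lower by 0.64 ± 0.09 (edgeR, adjusted p = 0.000524), with 11.3, 11.1 and 11.7 CPM with guide 2 and 17.7, 18.4 and 16.9 CPM with guide 1. For these 3 genes every guide 2 library was under every guide 1 library, and the share of all genes so separated was not counted. The guide 2 level was 0.633, 0.682 and 0.642 of the guide 1 level for Ifi204, Ifi211 and Ifi205.

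Ifi207 had the largest fitted difference of the 5, -0.72 ± 0.20, and did not pass (edgeR, adjusted p = 0.0605), although its libraries did not overlap, with 1.30, 1.16 and 0.977 CPM with guide 2 and 1.79, 1.99 and 1.91 CPM with guide 1. It passed under 8 of 17 alternative settings, with adjusted p from 0.0155 to 0.206 over all of them, so its call depends on the setting. Ifi203 differed by -0.32 ± 0.16 (edgeR, adjusted p = 0.307) and passed under none of the 17. Mndal was lower with guide 2 by 0.57 ± 0.14 (edgeR, adjusted p = 0.0257). It no longer passed when guide 1 replicate 2 was left out (adjusted p = 0.156), nor without guide 1 replicate 3 (0.0927) or guide 2 replicate 2 (0.138).

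**Figure D4:**
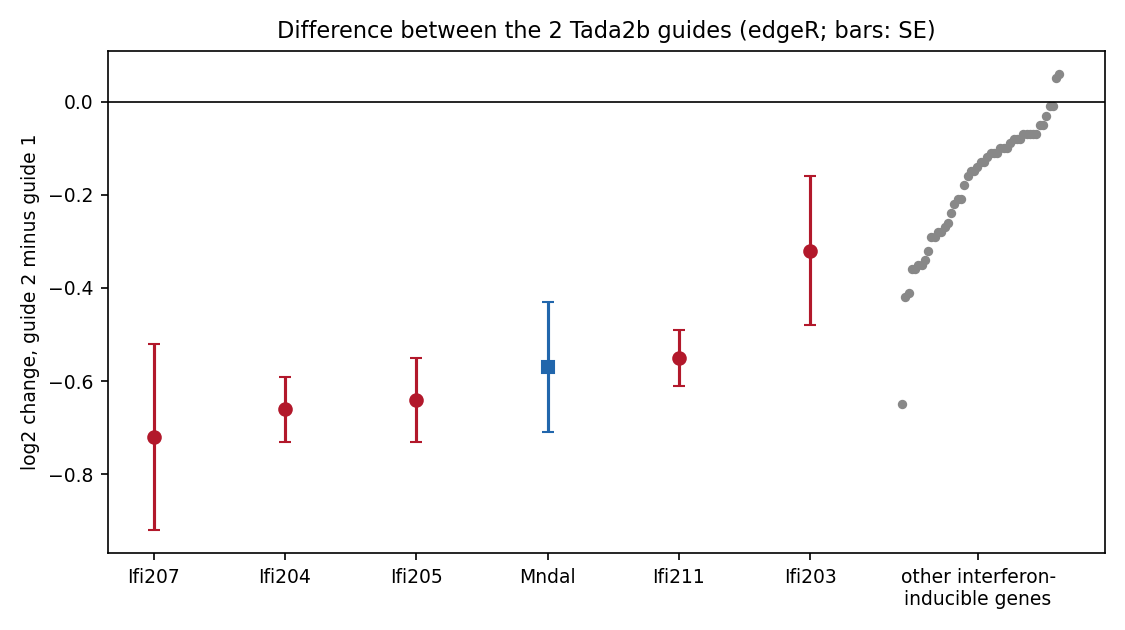
Log2 change of guide 2 minus guide 1 for the counted members (red circles) and Mndal (blue square), with bars of 1 SE, beside the tested genes of the list of other interferon-inducible genes (grey, sorted by value, no error shown). The p200 genes lie between -0.72 and -0.32, and most of the grey genes between -0.36 and 0.

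The reads of the family were divided among its members in nearly the same way with either guide. Ifi211 took 40.4 ± 1.38% of them with guide 2 and 39.1 ± 0.132% with guide 1, Ifi204 32.5 ± 1.64% and 34.0 ± 0.837%, Ifi205 19.6 ± 0.713% and 20.2 ± 1.18%, and Ifi207 1.98 ± 0.289% and 2.16 ± 0.164%, for guide 2 and guide 1 in that order (SD, n = 3 each). The ranges of these 4 shares overlapped between the guides except for Ifi211, whose lowest guide 2 share was just above its highest guide 1 share (39.4% and 39.2%). Ifi203 took 5.49 ± 0.569% with guide 2 and 4.53 ± 0.381% with guide 1, from 4.92 to 6.05% and from 4.10 to 4.81%, so these ranges did not overlap. The shares were not tested. Reads of Ifi203 came to 16.9 ± 1.38% of those of Ifi204 with guide 2 and to 13.3 ± 0.842% with guide 1.

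Summed over the 9 members, the family stood at 89.5, 85.6 and 87.9 CPM with guide 1, 59.9, 54.9 and 59.2 CPM with guide 2, and 1.66, 1.89 and 1.38 CPM with GFPsg. The family of GFPsg cells rests on 123, 126 and 99 reads, in which Ifi203 took 4.88 to 16.2%, so its division there is imprecise. With either guide at least 4246 reads stand behind each library's shares.

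**Figure D5:**
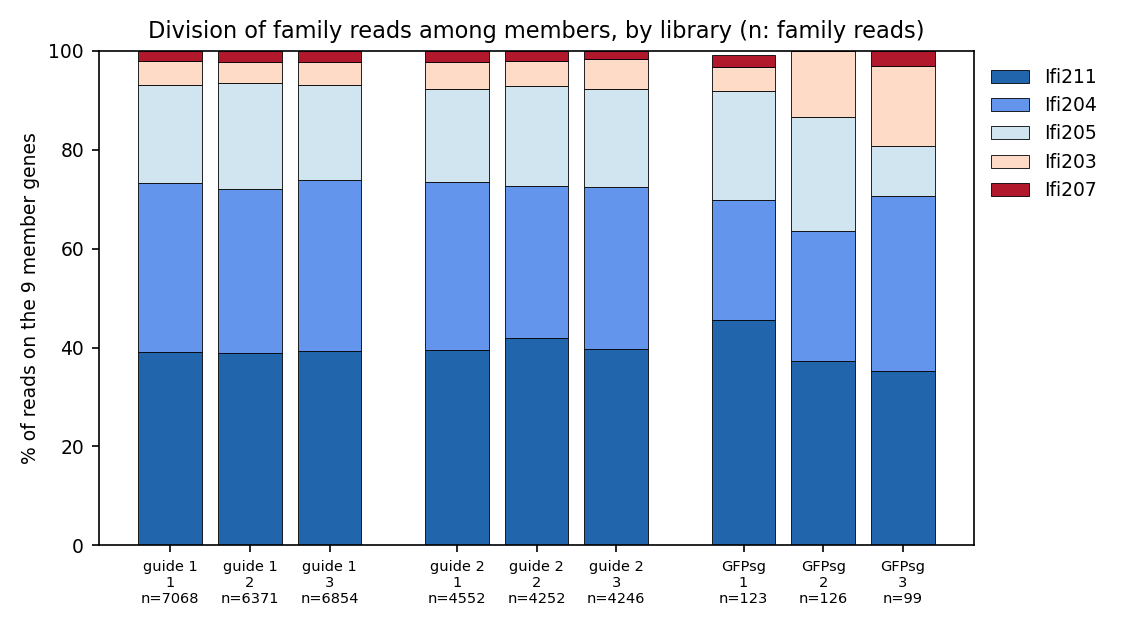
Division of the reads on the 9 member genes among Ifi211, Ifi204, Ifi205, Ifi203 and Ifi207 in each library, as % of family reads, with guide 1, guide 2 and GFPsg from left to right and the number of family reads (n) under each bar. The guide libraries are alike, with Ifi211 at 39.0 to 42.0%, and the GFPsg bars rest on 99 to 126 reads; the bar of GFPsg replicate 1 stops short of 100 because of 1 read on Aim2.

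Inflammasome genes did not move one way as a list, which holds other sensors beside partners of Aim2. Pycard and Casp1, through which Aim2 acts, both fell. Of 22 listed inflammasome genes 12 were tested, and in the contrast of both guides with GFPsg 5 rose, 3 fell and 4 were not called, with a median log2 change of 0.09 beside -0.02 over all genes tested. Of all genes tested, 24.7% rose and 26.3% fell. The adaptor Pycard fell by 1.03 ± 0.07 (edgeR, adjusted p = 1.6e-09), to 3.80 and 4.46 CPM with guide 1 and guide 2 against 8.39 CPM with GFPsg. Casp1, the protease that Pycard recruits, fell by 3.01 ± 0.53 (edgeR, adjusted p = 0.000143) at a low level, 0.0387 and 0.0780 CPM with guide 1 and guide 2 against 0.452 CPM with GFPsg. Casp8 fell by 0.11 ± 0.04 (edgeR, adjusted p = 0.0239) and did not pass under 8 of 17 alternatives, with adjusted p up to 0.629.

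Gsdmd, the pore-forming protein cut by Casp1, rose by 1.27 ± 0.15 (edgeR, adjusted p = 2.27e-06), Nlrx1, a mitochondrial NLR protein, by 0.72 ± 0.13 (adjusted p = 0.000203), and the cytokine Il18 by 0.33 ± 0.08 (adjusted p = 0.00209). Il1b, Nlrp3 and Mefv were at 0 in every library. Between the guides the median of this list was -0.08. None of the 20 inflammasome genes with a promoter window held an ISRE match.

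The STING pathway, to which p204 has been linked, gave 10 higher and 8 lower of 20 tested genes in the contrast of both guides with GFPsg, with a median of 0.08. The shares over all genes tested were 24.7% higher and 26.3% lower. Zbp1, another cytosolic sensor of nucleic acid, rose by 5.42 ± 0.25 (edgeR, adjusted p = 6.47e-12), about as far as the p200 genes, and Irf7, the factor that amplifies interferon transcription, by 3.28 ± 0.15 (adjusted p = 9.43e-12). Nlrc3, a negative regulator of STING, rose by 2.30 ± 0.20 and Ifi35 by 2.00 ± 0.07 (edgeR, adjusted p = 3.87e-08 and 8.03e-14), and the nucleotide hydrolase Samhd1 by 0.67 ± 0.04 (adjusted p = 6.1e-11). The kinase Ikbke fell by 0.79 ± 0.07 (edgeR, adjusted p = 1.03e-07).

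Of the central genes of the pathway, Tmem173, which encodes STING, was at 28.3, 29.2 and 29.0 CPM with guide 1, guide 2 and GFPsg, a change of -0.02 ± 0.04 that did not pass (edgeR, adjusted p = 0.792). Cgas, the DNA sensor upstream of STING, rose by 0.39 ± 0.04 (edgeR, adjusted p = 1.06e-06) to 25.2 and 23.9 CPM with guide 1 and guide 2 against 18.8 CPM with GFPsg. Irf3, the factor that the pathway activates, fell by 0.11 ± 0.04 (edgeR, adjusted p = 0.048) to 29.1 and 29.0 CPM against 31.4 CPM in the same order. It was called with neither guide alone (edgeR, adjusted p = 0.0961 for guide 1 and 0.0871 for guide 2). These 3 genes were named for their place in the pathway.

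Among receptors and signalling genes of the interferon response, 11 of 19 tested rose and 4 fell, beside 24.7% and 26.3% of all genes tested. Their median was 0.32. Irf9, the DNA-binding part of ISGF3, rose by 2.77 ± 0.06 (edgeR, adjusted p = 4.52e-16), and Stat2, another part of it, by 1.09 ± 0.05 (adjusted p = 1.74e-11). Feedback inhibitors of the pathway rose too, Usp18 by 3.90 ± 0.07, Socs3 by 1.64 ± 0.09 and Socs1 by 1.11 ± 0.17 (edgeR, adjusted p = 3.2e-17, 1.46e-10 and 4.23e-05), as did the factor Irf1, by 1.49 ± 0.05 (adjusted p = 8.97e-14). The receptor genes moved in both directions: Il10rb fell by 1.05 ± 0.04, Ifngr2 by 0.68 ± 0.03 and Ifnar1 by 0.38 ± 0.03, and Ifngr1 rose by 0.34 ± 0.05, while Ifnar2 and Ifnlr1 were not called.

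The interferon genes themselves were at the edge of detection. Of 21 listed, 12 had no read in any library and none passed the filter. Ifnb1, the interferon beta gene, had 2, 8 and 4 reads with guide 1, 15, 1 and 11 with guide 2, and 1, 0 and 0 with GFPsg. Every guide library had at least as many reads as the highest GFPsg library, and the guides overlapped, on numbers too small for a firm statement.

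Other interferon-inducible genes gave the setting for the family. All 49 tested genes of a list of 51 rose in the libraries labelled knockout, with a median log2 change of 2.48, and the same median was found over the 43 that belong to no other list. Of all genes tested, 24.7% rose. This list was chosen with earlier results known, so its direction is not independent evidence. The largest changes with at least 1 CPM on average were those of Iigp1 (5.20 ± 0.25), Tgtp1 (4.34 ± 0.20), Tgtp2 (4.27 ± 0.14), Oasl2 (3.94 ± 0.12) and Ifi44 (3.91 ± 0.14), with edgeR adjusted p of 1.27e-11, 5.73e-12, 9.43e-14, 1.82e-14 and 2.99e-13. Iigp1, Tgtp1 and Tgtp2 encode GTPases that act against intracellular pathogens, Tgtp1 and Tgtp2 are close copies whose split of reads is uncertain, and Oasl2 is related to the oligoadenylate synthetases. An ISRE match was found in 23 of the 38 genes of this list with a window, against 6 of 8 p200 members.

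Between the guides this list was shifted less than the p200 genes. Its median was -0.13 for guide 2 minus guide 1, with 7 of 49 genes called, each lower, against -0.64 for the 5 counted members with 3 called, each lower. Over all genes tested, 1.02% were called lower. The 7 ran from -0.42 in Trim30a (edgeR, adjusted p = 0.00486) to -0.21 in Ifi27 (adjusted p = 0.0119). Whether the members differ from that list was not tested, because they were chosen with results known.

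The 8 genes outside the list whose pattern over the 9 libraries was most like the mean of the 5 counted members were found by root mean square distance on log2 CPM centred on each gene's GFPsg mean, so that likeness is of change and not of level, among 11058 candidates with a median distance of 4.19. They were Siglecg (0.24), Col1a1 (0.28), Speer3 (0.29), Tpm2 (0.29), Zbp1 (0.31), Htra1 (0.33), Shroom3 (0.37) and Hspb7 (0.38). The members' own distances from that mean were 0.27 for Ifi211, 0.40 for Ifi204, 0.45 for Ifi207, 0.47 for Ifi205 and 0.86 for Ifi203. Of the members, Ifi211 alone lay as close to the family mean as these 8 genes. The 8 were picked as the closest of 11058 candidates by this same distance and the members were not, so no conclusion is drawn.

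Siglecg, a lectin of B cells that damps their signalling, was at 8.26 ± 0.165, 5.92 ± 0.111 and 0.160 ± 0.0551 CPM with guide 1, guide 2 and GFPsg, and it was lower with guide 2 than with guide 1 by 0.48 ± 0.09 (edgeR, adjusted p = 0.00465). Tpm2, a tropomyosin, was lower by 0.32 ± 0.07 (adjusted p = 0.0104) and Hspb7, a small heat shock protein of muscle, by 0.27 ± 0.06 (adjusted p = 0.0153). Col1a1, a collagen chain, was at 225 ± 5.57, 202 ± 16.1 and 7.27 ± 0.134 CPM with guide 1, guide 2 and GFPsg and was not called between the guides (edgeR, adjusted p = 0.0873). The 8 genes were picked for likeness to a family mean that is itself lower with guide 2 than with guide 1. Their tests between the guides therefore reuse the values that chose them and are given as description. Only Zbp1 of the 8 is on one of the immune lists used here.

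Around the cluster little else was transcribed. Within 500 kb of the outermost family genes lie 47 other annotated genes, 26 of them olfactory receptor genes, and 39 had no read in any library.

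Since p200 genes are high in leukocytes, 17 leukocyte markers were read as a check. Ptprc, Itgam, Tyrobp and Ms4a1 were at 0 in every library. Cx3cr1 had 32, 26 and 23 reads with guide 1, 20, 15 and 6 with guide 2, and 3, 5 and 1 with GFPsg. The summed level of the 17 markers was 7.94 to 8.80 CPM with guide 1, 7.06 to 7.54 CPM with guide 2 and 4.24 to 4.74 CPM with GFPsg. Of 6 tested, 4 rose and 1 fell, beside 24.7% and 26.3% of all genes tested. Cd68 rose by 1.09 ± 0.11 and Lyz2 by 1.08 ± 0.14, and Fcer1g fell by 1.19 ± 0.21 (edgeR, adjusted p = 1.44e-07, 4.79e-06 and 0.00013). The 8 fibroblast and endothelial markers summed to 13.4 to 14.2, 12.7 to 15.0 and 6.16 to 8.74 CPM with guide 1, guide 2 and GFPsg, of which Pdgfrb, up by 1.45 ± 0.09 (adjusted p = 6.88e-10), made the greater share, while Dcn and Cdh5 were at or near 0. Vwf fell by 2.11 and Pdgfra was not called. What these cell-type markers contribute to the p200 levels was not tested.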

How the data were processed

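The values deposited by the authors are raw counts per Ensembl gene for 9 libraries, made with bcl2fastq, HISAT2 and HTSeq on mm10, per the submitters' processing notes. Per the labels' protocols, libraries came from a stranded mRNA kit. Tool versions, annotation release, strand setting and read length are not given in the sources used here, so reads that fit several p200 genes may have been lost or shared unevenly. Of 54752 identifiers, 54723 matched GENCODE M21, which gave symbols, exon lengths and coordinates, and 22617 were 0 throughout. No library pair agreed within sampling noise by a chi-square test, with a statistic per degree of freedom from 7.12 to 22.7.

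Genes were filtered with filterByExpr (minimum count 10), which kept 17931, scaled by TMM and tested with edgeR 4.0.16 (quasi-likelihood F test) in R 4.3.3, 1 fit over 3 groups of 3, with Benjamini-Hochberg adjustment and calls under 0.05. The method was tested on simulated data. CPM used TMM-scaled library sizes, and levels per kilobase used exon unions. Errors of CPM are SD and those of log2 changes SE, and intervals and floors (95%; 3 counts) cover counting error only. Sequences are RefSeq's, build GRCm38.p6, matched by symbol.

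The members and gene lists were chosen with earlier results of these data known. Named were every member, counted relatives, up to 6 genes of each list with the largest change among those called with both guides at 1 CPM or more, any 3 or fewer calls against a list's majority, and the 8 genes most alike; other genes named were chosen after their values were seen. Alternatives were RLE factors, library size alone, no filter, a minimum of 50, DESeq2, limma-voom, a replicate block, only the groups compared and leaving out each library. Deviations of same-numbered libraries correlated by -0.012 to 0.100, and those of differently numbered libraries by -0.088 to 0.041. The labels do not say what a replicate number shares, so the main fit did not pair libraries by it. Protein sequences were not used here, and some genes of the lists are not reported by name.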

Additional observations from a re-analysis of the deposited data

Results flagged for a closer look

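The following genes differed between the guides by the test of that difference. The members were proposed with results from all 9 libraries known, so these tests are not independent of that knowledge. Ifi204 was lower with guide 2 than with guide 1 by a log2 change of -0.66, Ifi205 by -0.64 and Ifi211 by -0.55 (edgeR quasi-likelihood test, adjusted p = 1.24e-05, 0.000524 and 1.87e-05), in 3 of 3 guide 2 libraries in each gene. Mndal, outside the member list, had a log2 change of -0.57 (edgeR, adjusted p = 0.0257), also lower in 3 of 3. It did not pass without guide 1 replicate 2 (edgeR, adjusted p = 0.156), guide 1 replicate 3 (0.0927) or guide 2 replicate 2 (0.138). The causes were not tested.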

How the results depend on the processing

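No result changed direction under the 17 alternatives. Ifi204, Ifi205 and Ifi211 were called lower with guide 2 than with guide 1 under all of them, with log2 changes of -0.71 to -0.58, -0.67 to -0.61 and -0.57 to -0.54. The count of genes called between the guides, 660, moved most, to 1070 with no filter and to 335 to 808 when a library was left out; the lowest counts, 345, 335 and 399, came without guide 1 replicate 2, guide 1 replicate 3 and guide 2 replicate 2. With the replicate number as a block it was 1705, and Ifi207 was then called (adjusted p = 0.0359); the numbers were not taken to pair the libraries. With library size alone, 5914 genes were called higher and 3436 lower in the libraries labelled knockout against GFPsg, beside 4426 and 4715 with TMM, inflammasome genes called higher numbered 8 in place of 5, and STING genes called lower 5 in place of 8. Leaving out libraries gave 5 to 7 such STING genes (5 without GFPsg replicate 2) and 0 to 1 interferon genes called higher; no filter and DESeq2 gave 1 of the latter kind. No filter gave 2 fibroblast and endothelial markers called lower in place of 1. With a minimum count of 50, 0 chromosomal neighbours were tested and called. The causes were not tested. Depth limits Ifi208, Ifi209, Ifi213 and Aim2, at 4 reads or fewer a library.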

Other observations

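The rare ISRE form GAAATCGAAA occurred in the promoter windows of 9 genes outside the p200 family, of which 6 were tested. In the libraries labelled knockout against GFPsg, Ddx58, the RNA sensor RIG-I, rose by 2.71 ± 0.06 and Gm26797 by 1.46 ± 0.17 on the log2 scale (edgeR quasi-likelihood test, adjusted p = 1.65e-16 and 1.66e-06). Serpinb6a rose by 0.39 ± 0.04, Parp11 by 0.26 ± 0.05 and Ripk1 by 0.21 ± 0.04 (adjusted p = 8.59e-07, 0.00051 and 0.000337), and Pnrc1 fell by 0.61 ± 0.04 (adjusted p = 3e-10). These letters were chosen after the p200 matches had been seen, so the values describe the 6 genes and test nothing about the motif. The form GAAATTGAAA, found in Ifi205 and Ifi211, occurred in 37 of 27025 genes.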
